A study of Mus musculus with 28 samples.

Results

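Splicing factors and nuclear RNA-binding proteins were followed in mouse liver under ethanol and 2 dietary polyphenols. The list held 43 genes of the 18193 genes that the array annotation names, and 40 of them had at least 1 probe set annotated to that gene alone. The annotation used here names no probe set for Srsf7, and those for Hnrnpa3 and Rbm3 are shared with other genes, so no value is given for these 3 genes. The list was built around Rbm14, Sfpq and Hexim1, which were selected on their measured values, low with ethanol and ellagic acid against ethanol alone in wild-type (WT) mice, and the other 37 measured genes were added for their related function. For each gene the probe set with the highest mean over all arrays was used.

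Nuclear RNA-binding proteins decide how a primary transcript is cut, joined and released. SR proteins, which carry arginine and serine repeats, mostly promote the use of nearby splice sites, and CLK kinases phosphorylate them. Heterogeneous nuclear ribonucleoproteins (hnRNPs) coat nascent transcripts and often oppose SR proteins at an exon. Sfpq, Nono and Pspc1 belong to one family of paired RNA-binding proteins that, together with Rbm14 and the long noncoding RNA Neat1, build paraspeckles, bodies in the nucleus that hold back RNA and protein. Hexim1, with the 7SK RNA, keeps the elongation kinase P-TEFb inactive and so restrains release of paused RNA polymerase. In liver, splicing factors help set the adult forms of metabolic transcripts, and Cirbp is known for its response to cold and stress.

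All mice were on the C3H/HeN background. The paper describes purchased females, 5 weeks old and acclimated for 1 week. For the CAR-deficient strain, which came from another laboratory, it does not state sex and age separately. WT mice and mice deficient in CAR, the constitutive androstane receptor encoded by Nr1i3 that senses foreign compounds in hepatocytes, received one of 4 Lieber type isocaloric liquid diets. These were a control diet, a diet with ethanol (EtOH), a diet with ethanol and ellagic acid (EtOH+EA, titled Et+ella) and a diet with ethanol and trans-resveratrol (EtOH+RSV, titled Et+res). Feeding was free for 1 week and then restricted to 12 g a day for 4 weeks, with about 50 mg of polyphenol per kg of body weight daily. Each array held liver RNA of 1 mouse, with 4 arrays per diet in WT mice and 3 in CAR-deficient mice, 28 in all. Which part of Nr1i3 is deleted is not given in the sources used here, and the receptor is missing from the whole animal and not from hepatocytes alone.

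The values were deposited on a log2 scale after a summary that the sample titles name DFW and that also rescales each probe set, so a difference below is a difference of deposited log2 values and not a calibrated fold change. A probe set is called compressed where the standard deviation (SD) of a genotype's arrays did not exceed 0.01, and compressed probe sets made up 85.3% of probe sets in WT mice and 79.3% in CAR-deficient mice. Among the measured members 7 were compressed and 33 were not in each genotype. The median SD within a diet over those 33 was 0.0910 in WT mice and 0.128 in CAR-deficient mice. The array medians, 6.69 to 6.70 in WT and 6.88 to 6.89 in CAR-deficient mice, differed between the genotypes, so their values stand side by side and no difference between them was tested. Of 7 hepatocyte markers 6 were measured, with a mean level of 13.1 to 13.5 on the WT arrays and 15.8 to 16.7 on the CAR-deficient arrays. Among them Alb averaged 14.5 with the control diet in WT mice and 27.2 in CAR-deficient mice, so this 1 gene weighs heavily on the CAR-deficient mean. Nr1i3 itself, read by 1 probe set, lay between 8.96 and 10.1 in WT mice and between 8.55 and 9.49 in CAR-deficient mice, which checks no label because the levels are not comparable and the position of its probes relative to the deletion is not given. Because whole liver was measured, fewer cells of a type and less RNA per cell cannot be told apart.

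The promoters of the 3 selected genes, and of Srsf5 for contrast because its values were high where theirs were low, are shown first. Each runs from 250 bases before to 50 bases after a transcription start in RefSeq, build GRCm38.p6, and is written 5′ to 3′ on the strand of the gene. The start used for Sfpq lies inside the annotated gene, which begins at base 127020716, and the windows of the other 3 genes lie at or close to the annotated gene start. Capitals mark CCAAT and its reverse complement ATTGG, which overlap in CCAATTGG. Rbm14 is on the minus strand at chr19:4811585-4811884, Sfpq on the plus strand at chr4:127021051-127021350, Hexim1 on the plus strand at chr11:103116075-103116374 and Srsf5 on the plus strand at chr12:80945249-80945548.
Rbm14: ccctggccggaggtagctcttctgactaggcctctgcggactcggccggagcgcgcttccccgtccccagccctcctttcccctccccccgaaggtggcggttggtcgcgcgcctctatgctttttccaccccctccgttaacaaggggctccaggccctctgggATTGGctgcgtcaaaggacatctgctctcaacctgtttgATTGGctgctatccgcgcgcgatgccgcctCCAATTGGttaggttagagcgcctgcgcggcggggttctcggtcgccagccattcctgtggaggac
Sfpq: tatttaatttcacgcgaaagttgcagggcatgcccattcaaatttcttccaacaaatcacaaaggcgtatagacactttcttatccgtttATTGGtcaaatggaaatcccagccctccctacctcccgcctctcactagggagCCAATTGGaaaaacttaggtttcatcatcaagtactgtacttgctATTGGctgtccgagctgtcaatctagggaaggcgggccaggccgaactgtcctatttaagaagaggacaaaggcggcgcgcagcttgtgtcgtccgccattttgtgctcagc
Hexim1: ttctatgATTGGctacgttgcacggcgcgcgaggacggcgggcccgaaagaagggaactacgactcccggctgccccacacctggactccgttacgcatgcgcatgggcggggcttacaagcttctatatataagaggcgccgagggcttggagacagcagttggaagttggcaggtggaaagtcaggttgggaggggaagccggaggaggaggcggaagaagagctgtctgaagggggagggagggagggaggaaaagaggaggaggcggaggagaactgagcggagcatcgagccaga
Srsf5: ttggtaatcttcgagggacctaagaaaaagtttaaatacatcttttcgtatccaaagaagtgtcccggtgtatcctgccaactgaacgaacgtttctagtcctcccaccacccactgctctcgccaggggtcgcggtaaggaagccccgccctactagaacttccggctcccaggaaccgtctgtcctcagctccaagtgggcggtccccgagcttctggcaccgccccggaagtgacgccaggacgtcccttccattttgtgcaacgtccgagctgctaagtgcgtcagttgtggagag
Rbm14 and Sfpq each held 4 matches, from 85 to 13 bases before the start in Rbm14 and from 160 to 62 bases before it in Sfpq. Hexim1 held 1 match, 243 bases before the start, and Srsf5 held 0.

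CCAAT on either strand was found in 37.4% of all 32851 promoter windows of the same length, in 38.2% of the 21263 windows of protein-coding genes and in 50.9% of the 55 windows of members. These 55 belonged to 38 of the 40 measured genes, and members without a value were not searched. GGGCGGGG, the core of GC boxes, was found in 17.6% of all, 23.6% of protein-coding and 36.4% of member windows. CCGGAAG, the core of ETS sites, was found in 8.86%, 11.6% and 21.8% in the same order. The remaining 4 motifs searched on both strands were TATAAA (13.6%, 12.6% and 12.7%), CACGTG (7.15%, 7.84% and 7.27%), TGACGTCA (1.79%, 2.23% and 3.64%) and GCGCATGCGC (0.971%, 1.33% and 1.82%). CCAAT was chosen for display after these counts were seen. A match describes letters in a window and not a bound factor.

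In WT mice the 3 selected genes had their lowest values with EtOH+EA. Rbm14, a coactivator of transcription that also acts in splicing, read 8.23, 8.43, 8.43 and 8.44 on the control arrays, 8.59, 8.55, 8.57 and 8.69 with EtOH, 7.73, 7.79, 7.85 and 7.80 with EtOH+EA, and 8.52, 8.41, 8.44 and 8.42 with EtOH+RSV. Every EtOH+EA array lay below every other WT array, and every EtOH array lay above every control array. The group means differed by -0.80 for EtOH+EA minus EtOH, by 0.21 for EtOH minus control and by -0.15 for EtOH+RSV minus EtOH.

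Sfpq, which binds pyrimidine-rich RNA and is a core paraspeckle protein, read 8.96, 9.01, 9.05 and 9.01 with the control diet, 8.94, 9.13, 9.02 and 9.02 with EtOH, 8.07, 8.13, 8.25 and 8.14 with EtOH+EA, and 8.48, 8.66, 8.76 and 8.79 with EtOH+RSV. Control and EtOH arrays overlapped, the EtOH+RSV arrays lay below both, and the EtOH+EA arrays lay below all of them. The difference was -0.88 for EtOH+EA minus EtOH, -0.36 for EtOH+RSV minus EtOH and 0.02 for EtOH minus control.

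Hexim1, the inhibitor of P-TEFb, read 9.34, 9.36, 9.45 and 9.43 with the control diet, 9.13, 8.97, 8.85 and 9.05 with EtOH, 8.23, 7.90, 8.10 and 7.90 with EtOH+EA, and 8.73, 8.56, 8.39 and 8.68 with EtOH+RSV. The 4 diets formed 4 ranges with no overlap, in the order control, EtOH, EtOH+RSV and EtOH+EA. The difference was -0.97 for EtOH+EA minus EtOH, -0.41 for EtOH+RSV minus EtOH and -0.39 for EtOH minus control. For these 3 genes, no p-value is given in WT mice for a comparison that uses the EtOH or EtOH+EA arrays, since those arrays selected them. Counts below that include them in such comparisons are descriptions only.

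**Figure D1:**
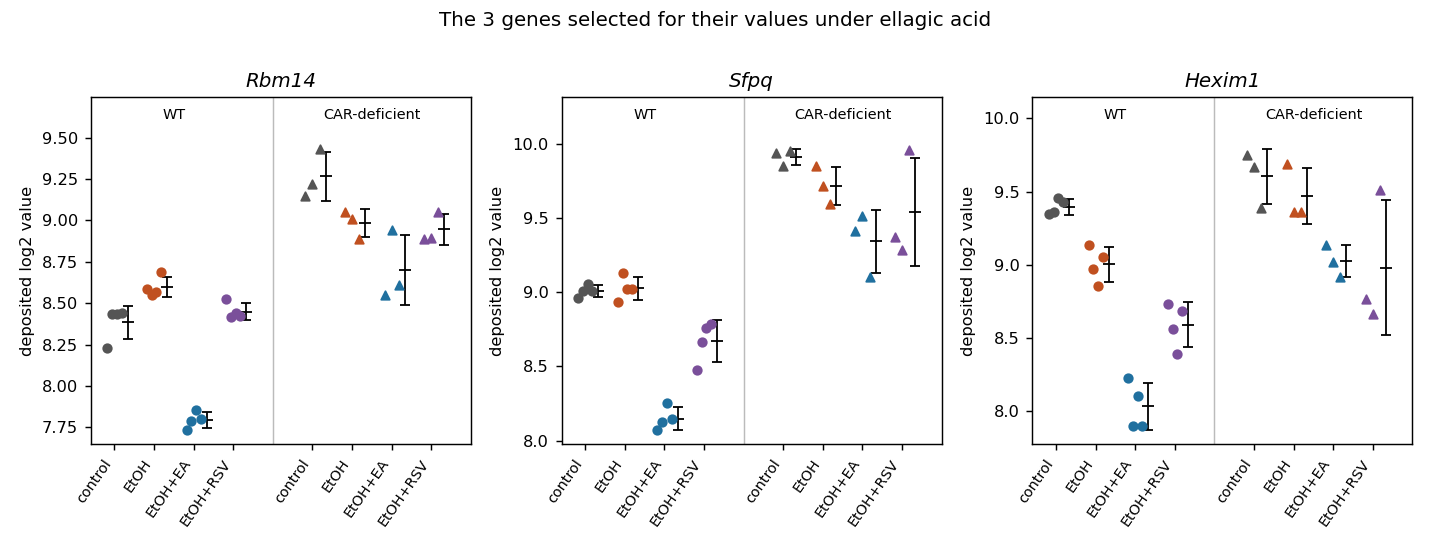
Deposited log2 values of Rbm14, Sfpq and Hexim1 on every array (circles, WT, 4 per diet; triangles, CAR-deficient, 3 per diet), with the mean and SD of each diet beside the points. In WT mice the EtOH+EA arrays of each gene lie below all other WT arrays, and in CAR-deficient mice they lie below the control arrays.

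The WT EtOH+RSV and control arrays took no part in the selection. Between them Hexim1 fell by 0.81 (standard error (SE) 0.09, limma adjusted p = 0.00024) and Sfpq fell by 0.34 (SE 0.06, adjusted p = 0.0041), both without overlap between the 4 arrays of each diet. Rbm14 differed by 0.07 (adjusted p = 0.35), and its EtOH+RSV arrays overlapped the control arrays. These tests take their spread from a fit of all 4 WT diets, so the selecting arrays enter the SE and p though not the means compared. EtOH+EA minus EtOH+RSV gave -0.66 for Rbm14, -0.52 for Sfpq and -0.56 for Hexim1, without overlap. That comparison uses the EtOH+EA arrays of the selection, which favours such a separation, so nothing is read from it.

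Differences of another probe set are given here for Hexim1 alone. Sfpq had 6 probe sets and Rbm14 had 5, and the differences of those not used are not given, so no accord among them is claimed. The second probe set of Hexim1 differed by -0.83 for EtOH+EA minus EtOH, the comparison behind the selection of this gene. It fell by 0.81 with EtOH+RSV against control (adjusted p = 0.0010). The Rbm14 values that were not compressed came from probe sets whose probes may also match related transcripts, and 1 further Rbm14 probe set is shared with another gene, so the reading of Rbm14 is the least certain of the 3.

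In CAR-deficient mice the same 3 genes were also lowest or near lowest with EtOH+EA, and no difference passed the limma test. A rank product at a false discovery rate of 0.05 called all 3 lower with EtOH+EA against control, and 0 of the other 37 members lower. It called none of the 3 with EtOH against control or with EtOH+EA against EtOH. Rbm14 read 9.15, 9.22 and 9.43 with the control diet, 9.05, 9.01 and 8.89 with EtOH, 8.55, 8.94 and 8.61 with EtOH+EA, and 8.89, 8.90 and 9.05 with EtOH+RSV. EtOH+EA minus control was -0.57 (SE 0.11, adjusted p = 0.10), without overlap, and EtOH+EA minus EtOH was -0.28 (SE 0.11, adjusted p = 0.56), with overlap. EtOH minus control was -0.28 (adjusted p = 0.36), below 0 where the WT difference was above 0.

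Sfpq in CAR-deficient mice read 9.94, 9.85 and 9.95 with the control diet, 9.85, 9.71 and 9.59 with EtOH, 9.41, 9.52 and 9.11 with EtOH+EA, and 9.37, 9.29 and 9.96 with EtOH+RSV. One EtOH+RSV array stood as high as the control arrays. The EtOH+EA arrays lay below all EtOH arrays (-0.37, SE 0.18, adjusted p = 0.61) and below all control arrays (-0.57, adjusted p = 0.25).

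Hexim1 in CAR-deficient mice read 9.75, 9.67 and 9.39 with the control diet, 9.69, 9.36 and 9.36 with EtOH, 9.13, 9.02 and 8.92 with EtOH+EA, and 8.77, 8.66 and 9.51 with EtOH+RSV. The EtOH+EA arrays again lay below every EtOH array (-0.45, SE 0.22, adjusted p = 0.62) and every control array (-0.58, adjusted p = 0.34). The array that was high for Sfpq with EtOH+RSV was also the high one for Hexim1.

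A gene is called where the limma test adjusted over all probe sets gave p under 0.05. Of the 37 members other than the 3 selected, 1 was called higher and 4 lower with EtOH against control in WT mice, beside 2.99% and 4.05% of all genes. With EtOH+EA against control 6 were higher and 8 lower, beside 8.29% and 9.67%. With EtOH+RSV against control, where the selected genes could be tested as well, 4 of all 40 were higher and 11 lower, beside 11.2% and 12.6%. These 3 comparisons share the 4 control arrays.

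After quantile normalization the split of calls over all 40 members was 10 higher and 10 lower with EtOH (34.5% and 6.34% of all genes), 13 and 12 with EtOH+EA (42.1% and 16.5%), and 11 and 12 with EtOH+RSV (47.2% and 13.8%). Quantile normalization thus moved the balance of calls toward higher, most of them in compressed probe sets.

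Shares were also taken over values that were not compressed. Among the 3857 WT genes that were not compressed, 6.69% were called higher and 11.7% lower with EtOH, 15.2% and 27.8% with EtOH+EA, and 14.3% and 31.0% with EtOH+RSV. Of the 30 such members other than the 3 selected, 1 was higher and 4 lower with EtOH (3.33% and 13.3%), 5 and 7 with EtOH+EA (16.7% and 23.3%), and 3 and 9 with EtOH+RSV (10% and 30%). Spread over the arrays defines this subset, so genes that differ between diets are favoured in it, among members and among all genes alike. After quantile normalization the lower calls with EtOH were 9 of these 30 members (30%) beside 16.7% of all such genes, and the higher calls were 2 (6.67%) beside 12.9%.

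For EtOH+EA against EtOH in WT mice, the comparison behind the selection, 3 members were past the threshold above and 4 below, beside 1.58% and 1.64% of all genes, and nothing is read from these counts. Of the 4 below, 3 are the selected genes. The remaining one, Srsf10, was compressed, and those above were Srsf5 (a difference of 0.70), Luc7l2 (0.39) and Ddx5 (0.29). Luc7l2 and Ddx5 each dropped under the threshold in 7 of 8 omissions of 1 array.

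Of the 37 members other than the 3 selected, limma called none with EtOH+RSV against EtOH, beside 0.242% of all genes higher and 0.313% lower. Of them 11 had an unadjusted p under 0.05, and the rank product called 4 higher and 1 lower. Limma also called none of the 37 for EtOH+EA against EtOH+RSV, beside 0.0055% and 0.011% of all genes, with 4 at an unadjusted p under 0.05 and 4 higher and 0 lower by the rank product. After quantile normalization the split over all 40 members was 1 higher and 3 lower for EtOH+EA against EtOH (1.13% and 0.885% of all genes) and 2 and 2 for EtOH+RSV against EtOH (4.39% and 0.687%).

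**Figure D2:**
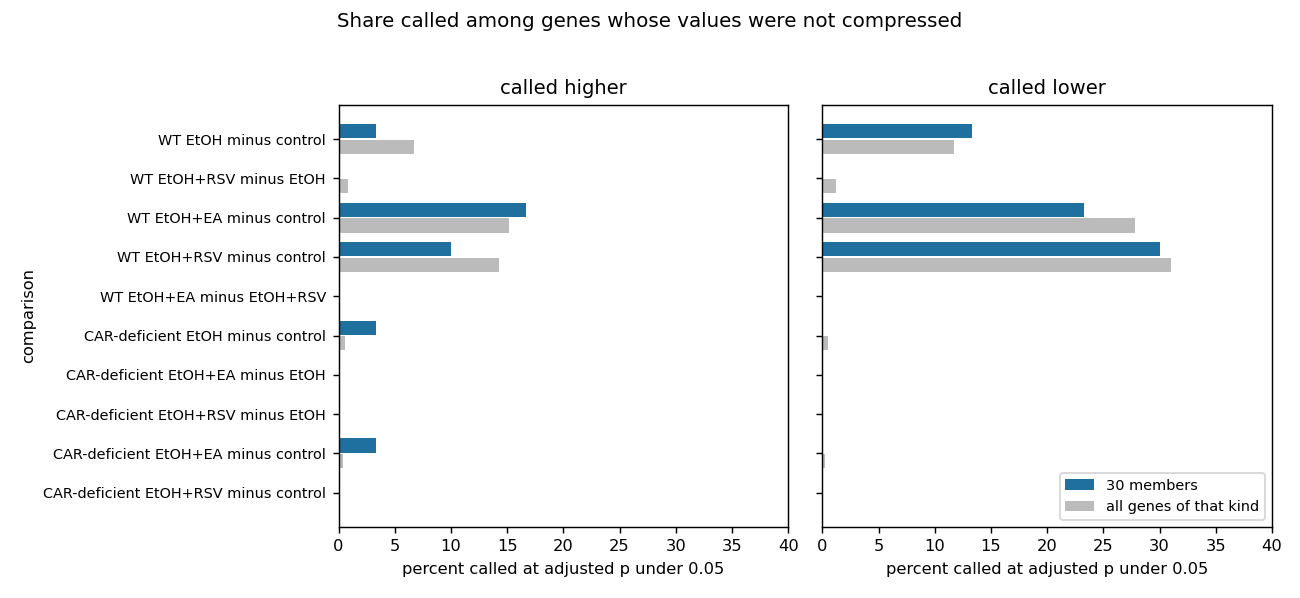
Percent of genes called higher (left) and lower (right) at an adjusted p under 0.05 for each comparison except the one that selected members, for the 30 members other than the 3 selected and for all genes whose values were not compressed. In WT mice with EtOH+RSV against the control diet 30% of members and 31.0% of all genes were lower, with EtOH+EA 23.3% and 27.8%, and in CAR-deficient mice at most 1 member was called.

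Among the paraspeckle proteins, Pspc1 was lower with all 3 ethanol diets in WT mice. Pspc1 read 7.60, 7.72, 7.57 and 7.49 with the control diet, 7.25, 7.14, 6.96 and 7.24 with EtOH, 6.76, 7.02, 7.23 and 7.11 with EtOH+EA, and 7.15, 7.01, 7.05 and 6.98 with EtOH+RSV. All 12 arrays with ethanol lay below the 4 control arrays. Pspc1 fell by 0.45 with EtOH (SE 0.09, adjusted p = 0.019), by 0.56 with EtOH+EA (adjusted p = 0.0021) and by 0.55 with EtOH+RSV (adjusted p = 0.0025). Without the second WT control array the call with EtOH was lost. Nono, its partner, and Matr3, a nuclear matrix protein that binds RNA, were compressed in WT mice. In CAR-deficient mice Pspc1 read 7.55, 7.60 and 7.92 with the control diet, 7.55, 7.40 and 7.58 with EtOH, 7.19, 7.48 and 7.60 with EtOH+EA, and 7.63, 7.14 and 7.20 with EtOH+RSV, with overlap among the diets.

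The noncoding RNAs of nuclear bodies did not pass the test in WT mice. Neat1, the scaffold of paraspeckles, differed from control by -0.33 with EtOH (adjusted p = 0.60), 0.14 with EtOH+EA and 0.16 with EtOH+RSV. Malat1, of nuclear speckles, differed by -0.22 (adjusted p = 0.26), -0.33 (adjusted p = 0.059) and -0.27 (adjusted p = 0.098) in the same order.

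Of 15 genes listed for 7SK and P-TEFb, 12 were measured, and in WT mice against control 0 were called with EtOH by limma (3 with an unadjusted p under 0.05, and 0 higher and 1 lower by the rank product), 1 higher and 2 lower with EtOH+EA, and 1 higher and 3 lower with EtOH+RSV. The shares of all genes called higher and lower were 2.99% and 4.05% with EtOH, 8.29% and 9.67% with EtOH+EA, and 11.2% and 12.6% with EtOH+RSV. Mepce, which caps and protects the 7SK RNA, fell by 0.38 with EtOH+EA (SE 0.09, adjusted p = 0.014) and by 0.30 with EtOH+RSV (adjusted p = 0.033). Ell, an elongation factor, rose by 0.44 with EtOH+EA (SE 0.08, adjusted p = 0.0031) and by 0.29 with EtOH+RSV (adjusted p = 0.021). Ccnt1, the cyclin of P-TEFb, fell by 0.20 with EtOH+RSV (adjusted p = 0.036), and Nelfa, the remaining gene called lower with each, was compressed. Cdk9, the kinase of P-TEFb, differed from control by at most 0.06 in WT mice and was not called, and Larp7, which holds the 7SK RNA, was compressed. In CAR-deficient mice Cdk9 averaged 9.38 with the control diet and 9.85 with EtOH, without overlap, and limma called 0 of the 12 genes in that comparison.

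SR proteins and the related Tra2 proteins, 10 measured, gave 0 calls by limma in WT mice with EtOH (3 had an unadjusted p under 0.05, and the rank product called 1 higher and 3 lower), 1 higher and 1 lower with EtOH+EA, and 0 higher and 2 lower with EtOH+RSV against control. Of all genes limma called 2.99% higher and 4.05% lower with EtOH, 8.29% and 9.67% with EtOH+EA, and 11.2% and 12.6% with EtOH+RSV. Srsf5, an SR protein that responds to growth and feeding signals, read 10.85, 10.74, 10.76 and 10.70 with the control diet, 10.11, 10.60, 10.62 and 10.60 with EtOH, 11.13, 11.28, 11.05 and 11.26 with EtOH+EA, and 10.76, 10.76, 10.73 and 11.03 with EtOH+RSV. Every EtOH+EA array lay above every other WT array. Srsf5 rose by 0.42 with EtOH+EA against control (SE 0.11, adjusted p = 0.023), a call that was lost when any of 4 of the 8 arrays was left out, and was 0.70 above EtOH, which is a difference in the comparison that selected the list. Srsf5 was -0.28 from control with EtOH (adjusted p = 0.16), with 1 EtOH array far below the other 3.

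Srsf2, which acts in exon recognition and in release of paused polymerase, fell by 0.38 with EtOH+EA (SE 0.05, adjusted p = 0.00073) and by 0.31 with EtOH+RSV (adjusted p = 0.0022). Its probe set may also match related transcripts, and a compressed probe set of Srsf2 without this limit gave a difference of 0.000086 with EtOH+EA, of the opposite sign. Srsf3, the smallest SR protein, read 9.17, 9.40, 9.18 and 9.13 with the control diet, 8.92, 8.98, 8.63 and 9.51 with EtOH, 8.81, 8.77, 8.89 and 9.01 with EtOH+EA, and 8.77, 8.44, 8.90 and 8.51 with EtOH+RSV. One EtOH array stood above all control arrays, while the other 3 lay below them. Srsf3 fell by 0.57 with EtOH+RSV (SE 0.16, adjusted p = 0.027), but its other 4 probe sets that were not compressed differed by -0.28 to -0.02 and none was called. The call was also lost in 4 of 8 omissions of 1 array. Tra2a, a splicing activator that binds purine-rich exon sequences, was 0.39, 0.36 and 0.32 above control with EtOH, EtOH+EA and EtOH+RSV and did not pass the test (adjusted p = 0.085, 0.069 and 0.080). Srsf1 and Srsf6, SR proteins that bind purine-rich enhancers, were within 0.06 and 0.07 of control with each ethanol diet and did not pass the test.

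Of 13 measured hnRNPs, 1 was called higher and 2 lower with EtOH, 4 and 4 with EtOH+EA, and 3 and 5 with EtOH+RSV against control in WT mice. Over the 12 that were not compressed the shares were 8.33% and 16.7%, 25% and 33.3%, and 16.7% and 41.7%, beside 6.69% and 11.7%, 15.2% and 27.8%, and 14.3% and 31.0% of all such genes. Hnrnpa1, a splicing repressor that favours distal splice sites, was higher with each ethanol diet. It read 8.18, 8.24, 8.41 and 8.35 with the control diet, 8.51, 8.69, 8.74 and 8.54 with EtOH, 8.82, 8.92, 9.04 and 8.94 with EtOH+EA, and 8.64, 8.80, 8.90 and 8.94 with EtOH+RSV. The EtOH+EA arrays lay above all EtOH arrays, and all 12 ethanol arrays lay above the control arrays. Hnrnpa1 rose by 0.33 with EtOH (SE 0.08, adjusted p = 0.031), by 0.63 with EtOH+EA (adjusted p = 0.00039) and by 0.53 with EtOH+RSV (adjusted p = 0.0011). The call with EtOH was lost when any of 5 of the 8 arrays was left out, and 3 further probe sets of this gene are shared with other genes, as near-identical copies of it exist. Hnrnpa2b1, its close relative, rose by 0.34 with EtOH+RSV (adjusted p = 0.0056). With EtOH+EA it rose by 0.22 (adjusted p = 0.046), a call lost in 7 of 8 omissions of 1 array and with the replicate number as a block (adjusted p = 0.081).

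Hnrnpd, also known as AUF1, which binds AU-rich elements and speeds decay of many transcripts, was lower with each ethanol diet. It read 9.57, 9.69, 9.64 and 9.59 with the control diet, 9.14, 9.17, 8.71 and 9.31 with EtOH, 9.07, 9.29, 9.22 and 9.39 with EtOH+EA, and 8.98, 8.87, 8.99 and 9.08 with EtOH+RSV. No ethanol array reached the control range. Hnrnpd fell by 0.54 with EtOH (SE 0.11, adjusted p = 0.015), by 0.38 with EtOH+EA (adjusted p = 0.035) and by 0.64 with EtOH+RSV (adjusted p = 0.0023). The call with EtOH+EA was lost in 7 of 8 omissions of 1 array and with the replicate number as a block (adjusted p = 0.054). A second probe set of Hnrnpd that was not compressed differed by 0.31 with EtOH+RSV (adjusted p = 0.088), so the probe sets of this gene disagreed in direction.

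Hnrnpl, which binds CA repeats, fell by 0.26 with EtOH (SE 0.03, adjusted p = 0.0013), by 0.30 with EtOH+EA (adjusted p = 0.00022) and by 0.28 with EtOH+RSV (adjusted p = 0.00034), and no omission of 1 array removed these calls. Hnrnph1, which binds runs of G, fell by 0.40 with EtOH+EA (adjusted p = 0.0029) and by 0.32 with EtOH+RSV (adjusted p = 0.0080). Hnrnpk, which binds runs of C, fell by 0.28 with EtOH+EA (adjusted p = 0.016). Tardbp, which represses cryptic exons, fell by 0.34 with EtOH+RSV (adjusted p = 0.023), and Hnrnpr, a protein of the same broad family, fell by 0.22 (adjusted p = 0.026). The Tardbp call was lost in 4 of 8 omissions of 1 array and the Hnrnpr call in 5 of 8. The probe set of Tardbp may also match related transcripts. Hnrnpf rose by 0.16 with EtOH+EA (adjusted p = 0.017), and Hnrnpm was called higher with both polyphenols from compressed values. Hnrnpc and Hnrnpu, which package nascent transcripts, were within 0.04 and 0.08 of control and were not called. The hnRNPs thus held calls in both directions, with Hnrnpa1 higher and Hnrnph1 and Hnrnpl lower with both polyphenols in every omission of 1 array.

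Cirbp, the cold-inducible RNA-binding protein, had its lowest WT group mean with EtOH. It read 7.95, 8.11, 7.90 and 7.85 with the control diet, 7.43, 7.31, 7.38 and 7.35 with EtOH, 7.66, 7.65, 7.57 and 7.83 with EtOH+EA, and 7.56, 7.28, 7.76 and 7.53 with EtOH+RSV. The EtOH+EA arrays lay between the control and EtOH ranges without touching either, and the EtOH+RSV arrays overlapped the EtOH range. Cirbp fell by 0.58 with EtOH (SE 0.09, adjusted p = 0.0043) and by 0.42 with EtOH+RSV (adjusted p = 0.0075), and differed by -0.27 with EtOH+EA (adjusted p = 0.061). In CAR-deficient mice Cirbp read 8.46, 8.14 and 8.07 with the control diet, 8.83, 8.42 and 9.03 with EtOH, 8.72, 8.12 and 8.37 with EtOH+EA, and 7.93, 8.41 and 7.76 with EtOH+RSV. There EtOH minus control was 0.53 (adjusted p = 0.40), on the other side of 0 from the WT difference.

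The kinases, the U1 and U2 associated factors and the DEAD-box helicases gave few calls in WT mice. Clk4, a kinase of SR proteins, rose by 0.30 with EtOH+EA (SE 0.06, adjusted p = 0.0050) and by 0.23 with EtOH+RSV (adjusted p = 0.018). Prpf4b, a kinase of the assembling spliceosome, fell by 0.29 with EtOH+EA (SE 0.07, adjusted p = 0.019), a call lost in 3 of 8 omissions of 1 array. Its probe sets disagreed, as another one rose by 0.25 (adjusted p = 0.0061) and a further one fell by 0.18 (adjusted p = 0.043). Of 5 U1 and U2 associated factors, Rbm5 was called lower with EtOH+EA from compressed values, and no other was called against control. Luc7l2, a U1 associated factor, was -0.29 from control with EtOH (adjusted p = 0.085), and Rbm39 lay within 0.07 of control with each ethanol diet. Ddx5 and Ddx17, RNA helicases that unwind structured RNA, were not called, at 0.16 (adjusted p = 0.14) and -0.15 (adjusted p = 0.33) with EtOH+EA against control.

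**Figure D3:**
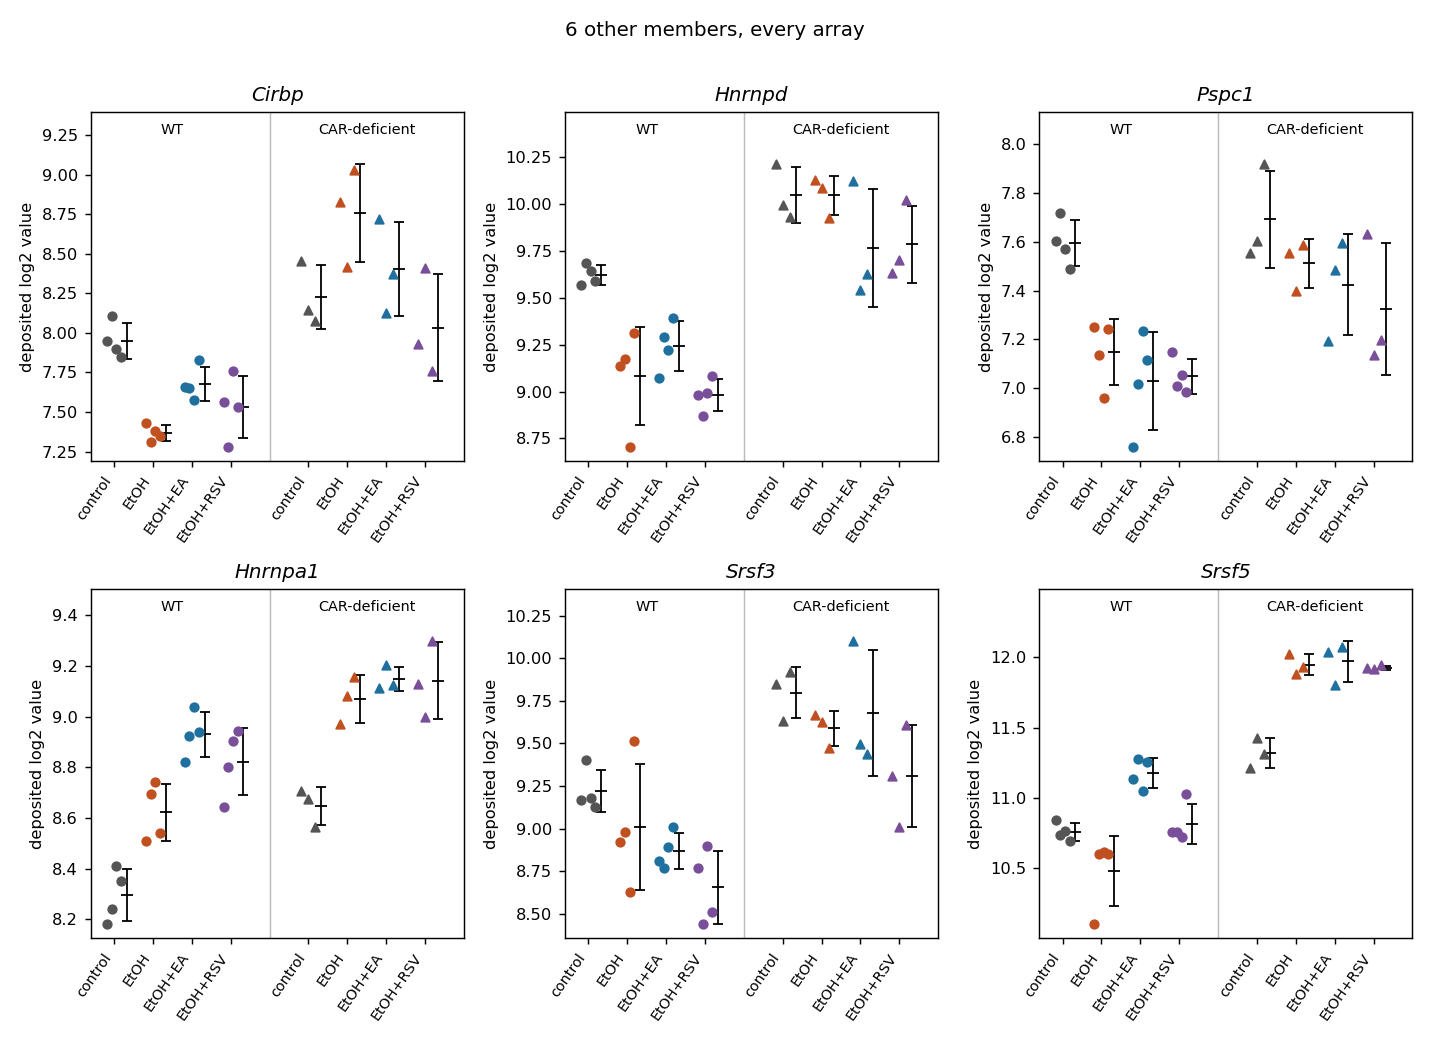
Deposited log2 values of Cirbp, Hnrnpd, Pspc1, Hnrnpa1, Srsf3 and Srsf5 on every array (circles, WT, 4 per diet; triangles, CAR-deficient, 3 per diet), with the mean and SD of each diet. In WT mice the ethanol arrays of Cirbp, Hnrnpd and Pspc1 lie below the control arrays and those of Hnrnpa1 above them, and in CAR-deficient mice Srsf5 lies above the control arrays with each ethanol diet.

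In CAR-deficient mice 1 member was called higher and 0 lower with EtOH against control, beside 0.209% and 0.225% of all genes. It was Srsf5, which read 11.22, 11.43 and 11.31 with the control diet, 12.03, 11.88 and 11.93 with EtOH, 12.04, 11.80 and 12.07 with EtOH+EA, and 11.92, 11.92 and 11.94 with EtOH+RSV. All 9 ethanol arrays lay above the 3 control arrays, and the 3 ethanol diets overlapped. Srsf5 rose by 0.63 with EtOH (SE 0.08, adjusted p = 0.029) and by 0.65 with EtOH+EA (adjusted p = 0.037), and differed by 0.61 with EtOH+RSV (adjusted p = 0.053). Each of the calls was lost when any of 5 of the 6 arrays was left out, and with the replicate number as a block the adjusted p with EtOH was 0.11.

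With EtOH+EA against control in CAR-deficient mice Srsf5 was the 1 member called higher by limma and 0 were lower (0.148% and 0.0935% of all genes). There the rank product called 4 higher and 3 lower, the latter being the 3 selected genes. Limma called 0 higher and 0 lower with EtOH+RSV against control (0.0495% and 0.022% of all genes), where 10 members had an unadjusted p under 0.05 and the rank product called 2 higher and 2 lower. Limma also called 0 of all genes (0% higher and 0% lower) for EtOH+EA and for EtOH+RSV against EtOH, where 3 members each had an unadjusted p under 0.05 and the rank product called none. Hnrnpa1 read 8.71, 8.67 and 8.56 with the control diet, 8.97, 9.08 and 9.16 with EtOH, 9.11, 9.20 and 9.13 with EtOH+EA, and 9.13, 9.0 and 9.30 with EtOH+RSV. All its ethanol arrays lay above its control arrays, as in WT mice, with differences of 0.42, 0.50 and 0.49 (adjusted p = 0.086, 0.061 and 0.077). Rbm39, a U2 associated factor, was 0.56 above control with EtOH (adjusted p = 0.075). Hnrnpd, lower with EtOH in WT mice, was at -0.00 with EtOH in CAR-deficient mice (adjusted p = 1.0).

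Of the 33 members not compressed in CAR-deficient mice, 1 lay wholly above and 10 wholly below the EtOH arrays with EtOH+EA, beside 7% and 9.24% of all such genes. With EtOH+EA against control 7 lay above and 10 below, beside 18.7% and 18.4%. With EtOH against control 8 lay above and 2 below, beside 15% and 12.4%. With 3 arrays a diet such separation is common among all genes, and none of these counts is a test.

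**Figure D4:**
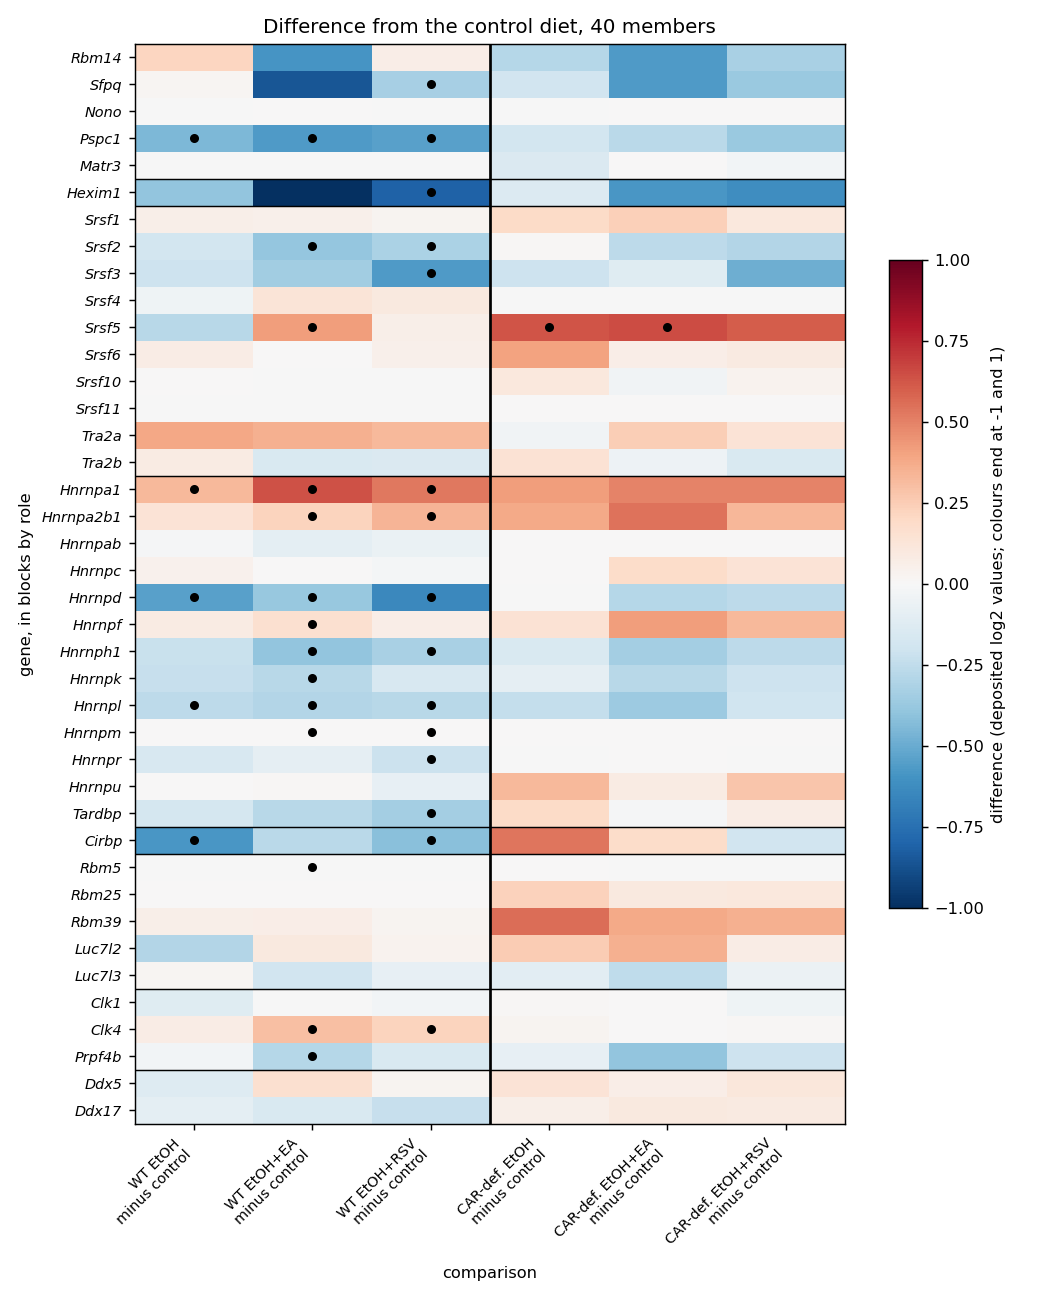
Differences of deposited log2 values from the control diet of the same genotype for the 40 measured members, in blocks by role (red higher, blue lower; colours end at -1 and 1), with a dot where the limma adjusted p was under 0.05. Dots are left out for Rbm14, Sfpq and Hexim1 where the arrays that selected them enter, and the CAR-deficient columns hold 2 dots, both for Srsf5.

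Genes of the wider splicing machinery that are no members were counted as well. Of 60 core spliceosome genes, 56 were measured, and in WT mice against control 0 were called higher and 4 lower with EtOH, 4 and 9 with EtOH+EA, and 4 and 17 with EtOH+RSV. Higher calls made up 2.99%, 8.29% and 11.2% of all genes in the same order. The lower calls were 7.14%, 16.1% and 30.4% of the 56, beside 4.05%, 9.67% and 12.6% of all genes, and 17.6%, 41.2% and 58.8% of the 17 that were not compressed, beside 11.7%, 27.8% and 31.0% of all such genes. Ddx46, a helicase of early spliceosome assembly, fell by 0.36, 0.42 and 0.35 in the same order. Prpf6, a scaffold of the tri-snRNP, fell by 0.44 with EtOH+RSV, and Snw1, a factor of the active spliceosome, rose by 0.27 with EtOH+EA. In CAR-deficient mice 1 of the 56 (1.79%) was called lower with each ethanol diet and none higher. With EtOH, EtOH+EA and EtOH+RSV, 0.225%, 0.0935% and 0.022% of all genes were lower there. Those higher were 0.209%, 0.148% and 0.0495%.

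Of 51 other splicing regulators, 48 were measured, with 0 called higher and 2 lower with EtOH, 1 and 7 with EtOH+EA, and 2 and 11 with EtOH+RSV in WT mice. The lower calls were 4.17%, 14.6% and 22.9% of the 48, beside 4.05%, 9.67% and 12.6% of all genes. They were 8.33%, 20.8% and 33.3% of the 24 that were not compressed, beside 11.7%, 27.8% and 31.0% of all such genes. Higher calls made up 2.99%, 8.29% and 11.2% of all genes. Hnrnpa0 fell by 0.29 with EtOH and by 0.39 with EtOH+RSV, and Dhx9, an RNA helicase, fell by 0.38 with EtOH+EA. Mbnl2, which promotes adult splice forms, rose by 0.57 with EtOH+RSV (adjusted p = 0.016). Of 16 genes of the exon junction complex and nonsense-mediated decay, 11 were measured, with 1, 2 and 2 called higher and none lower, all from compressed values. The shares of all genes were 2.99%, 8.29% and 11.2% higher, and 4.05%, 9.67% and 12.6% lower. The lists with over 40 measured genes thus held more lower than higher calls, as did all genes that were not compressed.

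Markers of Kupffer cells, the resident macrophages of liver, moved in the same WT comparisons. Of 10 markers, 8 were called lower with EtOH, 9 with EtOH+EA and 8 with EtOH+RSV against control, beside 4.05%, 9.67% and 12.6% of all genes. Their mean level ran from 8.75 to 8.88 on the control arrays, from 8.55 to 8.68 with EtOH, from 8.56 to 8.61 with EtOH+EA and from 8.53 to 8.67 with EtOH+RSV, so no ethanol array reached the control range. In CAR-deficient mice it ran from 9.30 to 9.49, 9.0 to 9.21, 8.97 to 9.19 and 9.09 to 9.24. Adgre1, a surface antigen of macrophages, fell by 0.44, 0.56 and 0.56 in WT mice, and the part of these cells in the values of the members was not tested.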

How the data were processed

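Liver RNA of 28 mice was measured on Affymetrix mouse genome arrays. The authors normalized probe signals by several methods in R and deposited log2 values whose sample titles name DFW (Distribution Free Weighting). Their use of DFW on the genotypes apart is not stated, and is inferred from the different centres of the columns and from probe sets blank in one genotype alone. The values were used without further scaling. Their number, 3 or 4 arrays per diet, limits the precision. Groups and replicate numbers came from the sample titles. Of 45101 probe sets, 45037 remained without Affymetrix controls, and GEO's platform annotation named 1 gene for 34945, several for 932 and none for 9160 of them. No gene was named from a probe set with several.

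Diets were compared within a genotype with limma 3.58.1 (R 4.3.3; lmFit and eBayes), the 4 diets in 1 fit, on all probe sets. Adjusted p-values are two-sided, by Benjamini-Hochberg over all of them, with a threshold of 0.05. Background shares were taken over 18193 genes in WT mice and 18183 in CAR-deficient mice, 1 probe set each, and the 26 probe sets blank in the latter were dropped. Both limma and a rank product (false discovery rate 0.05, 50 permutations) were tested on simulated data. Alternatives were a smallest difference of 0.1, leaving out each array, probe sets above the median level alone, a fit of just the 2 groups compared, quantile normalization, the rank product, a replicate block and omission of probe sets ending in _x_at or _s_at.

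The members and all gene lists were chosen with earlier results of these data known, and any member could be named. Values of every array are given for Rbm14, Sfpq and Hexim1 and for called members with the largest differences (up to 5 per comparison), and genes of other lists are named as the 2 higher and 2 lower called ones with the largest differences, or as fixed names (Neat1, Malat1, Cdk9, Larp7, Mepce, Nr1i3). A few others were named after their values were seen. Markers of sinusoidal endothelium, stellate cells, cholangiocytes and lymphocytes were read too. The labels do not say that mice with the same number belong together, and p-values measure the spread between these mice only. Same-numbered arrays deviated together in every pair for EtOH+EA against control in WT mice (r from 0.157 to 0.568, 4 pairs) and for EtOH against control in CAR-deficient mice (r from 0.288 to 0.410, 3 pairs).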

Additional observations from a re-analysis of the deposited data

Results flagged for a closer look

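In 3 cases 1 array stood apart from the other 3 of its WT diet by the gap to the nearest one, among 36 groups of 4 looked at, where chance picks out about 1 in 20 groups. Rbm14 was 8.23 on the first control array and 8.43 to 8.44 on the others. Srsf5 was 10.1 on the first EtOH array and 10.6 on the others, and 11.03 on the fourth EtOH+RSV array with the others at 10.73 to 10.76. What set these arrays apart was not tested.

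Among the genes with every array given, 2 had EtOH minus control differences of opposite sign in the genotypes, without overlap in either. Opposite signs with overlap, as for Cirbp, were not counted, and the other members were not scanned. Rbm14 differed by 0.21 in WT mice and by -0.28 in CAR-deficient mice, and Srsf5 by -0.28 and 0.63, in each case without overlap between the diets. The WT difference of Rbm14 uses the EtOH arrays that selected it. The difference between genotypes was not tested.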

How the results depend on the processing

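Of the 51 member differences past the threshold, those of the selected genes included as a description, the call held in 47 when a difference of at least 0.1 was required, in 51 over probe sets above the median level, in 34 with only the 2 groups compared, in 46 after quantile normalization, in 47 by the rank product, in 43 with a replicate block and in 46 without probe sets ending in _x_at or _s_at, and in 302 of 404 omissions of 1 array. The sign turned in 4 cases, all at values near 0 under the alternative: after quantile normalization for Srsf10 with EtOH+EA against EtOH (0.0025) and Rbm5 with EtOH+EA against control (0.038), and without _x_at and _s_at probe sets for Srsf2 with EtOH+EA (0.000086) and EtOH+RSV (0.000415) against control, where a compressed probe set replaced it.

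Counts over all 40 members, the selected genes included, moved as follows in WT mice. Over probe sets above the median, 9 were lower with EtOH against control, 5 higher with EtOH+EA against EtOH and 2 lower with EtOH+RSV against EtOH. With only the 2 groups compared, 0 were higher and 3 lower with EtOH, 0 higher for EtOH+EA and 0 lower for EtOH+RSV against EtOH, and 1 lower for EtOH+EA against EtOH+RSV. Quantile normalization gave 10 higher and 10 lower with EtOH, 1 higher for EtOH+EA against EtOH, 2 and 2 for EtOH+RSV against EtOH, and 13 and 11 higher with EtOH+EA and EtOH+RSV against control. The rank product gave 11 lower with EtOH, 8 and 8 for EtOH+EA against EtOH, 4 and 4 for EtOH+RSV against EtOH, and 4 higher for EtOH+EA against EtOH+RSV. Without _x_at and _s_at probe sets, and with the replicate block, 1 was higher with EtOH. In CAR-deficient mice EtOH+EA and EtOH+RSV against control gave 2 and 1 higher above the median, 0 were higher with EtOH or EtOH+EA with only 2 groups or with the replicate block, and 0 were higher with EtOH+EA after quantile normalization. The rank product gave 2 higher with EtOH, 4 higher and 3 lower (the 3 selected genes) with EtOH+EA, and 2 and 2 with EtOH+RSV. The causes of these moves were not tested.

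Leaving out 1 array gave, in WT mice, 1 to 2 higher and 3 to 5 lower with EtOH (3 without the second control array), 1 to 3 and 3 to 4 for EtOH+EA against EtOH, 0 to 1 and 0 to 1 for EtOH+RSV against EtOH, 3 to 4 and 8 to 10 with EtOH+EA, 3 to 4 and 8 to 11 with EtOH+RSV, and 1 to 3 lower for EtOH+EA against EtOH+RSV. In CAR-deficient mice it gave 0 to 2 higher with EtOH and 0 to 1 with EtOH+EA. With the replicate block, where the pairing held in every pair, Hnrnpa2b1 (adjusted p = 0.081) and Hnrnpd (adjusted p = 0.054) lost their calls with EtOH+EA against control in WT mice, as did Srsf5 with EtOH in CAR-deficient mice (adjusted p = 0.11). Signal over background could not be read from DFW values, and compressed values carry little information on size.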

Other observations

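Markers of other liver cells were read beside the members. Lyve1, 1 of 6 markers of sinusoidal endothelium, was 7.45 on average with the control diet and 8.17 with EtOH+EA in WT mice. Of the 6, 3 were called higher and 0 lower with EtOH+EA against control, beside 8.29% and 9.67% of all genes. With EtOH 0 were higher and 1 lower (2.99% and 4.05%), and with EtOH+RSV 0 and 1 (11.2% and 12.6%). The mean level of the 6 ran from 8.98 to 9.19 with the control diet and from 9.16 to 9.27 with EtOH+EA, with overlap. Nr1i3, the gene of CAR, was 0.64 higher with EtOH+EA than with EtOH in WT mice, in the comparison that selected members.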
